A study of Mus musculus with 3 samples.

Results

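The genes described here encode the inward rectifier, two-pore-domain, calcium-activated and sodium-activated potassium channels and the beta subunits of the BK channel. They were chosen by symbol alone, from the Kcnj, Kcnk, Kcnn, Kcnmb and Kcnt families with Kcnma1 and Kcnu1, which gave 41 of the 33101 gene symbols with a value: 15 Kcnj, 14 Kcnk, 4 Kcnn, 4 Kcnmb and 2 Kcnt genes, Kcnma1 and Kcnu1. Messenger RNA had been sequenced from dentate gyri of wild-type male C57BL/6 mice 8 to 10 weeks old, dissected from both sides of the brain. The 3 libraries formed 1 group, with no genotype, treatment or time to set it against. The deposited table carried 1 value per gene for that whole group, in FPKM, which is the number of fragments scaled by transcript length and by the mapped fragments of the library. No level below therefore has a standard deviation, no ratio has a test against replicate spread, and the depth behind a level is unknown.

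Most of these channels are open at or near the resting potential or open when calcium or sodium ions enter the cell, and they pull the membrane towards the potassium equilibrium. Inward rectifiers (Kir channels) pass potassium more easily into the cell than out of it, and two-pore-domain channels (K2P channels) carry background leak currents. The SK, BK and Slack families are opened by calcium or sodium ions and shape the repolarisation and the afterpotentials that follow spikes. Dentate granule cells are known for a very negative resting potential and sparse firing, and astrocytes for a membrane dominated by potassium conductance.

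Markers of dentate granule cells were present in the RNA of the dissected tissue. All 6 granule cell markers exceeded 10 FPKM, with a median of 61.1 FPKM, beside 30.8% of protein-coding symbols. They were led by C1ql2 at 111 FPKM and C1ql3 at 102 FPKM, with Tdo2 lowest at 23.5 FPKM. Other cells were present in the same RNA. At 10 FPKM or more stood 8 of 9 astrocyte, 6 of 8 oligodendrocyte, 6 of 7 microglial and 4 of 6 interneuron markers. The count of granule cell markers therefore does not set granule cells apart from these cells. The astrocyte markers had a median level of 94.4 FPKM, from Aldoc at 511 FPKM and Slc1a2 at 267 FPKM to Sox9 at 0.925 FPKM. The oligodendrocyte markers had a median of 40.2 FPKM (Mbp at 261 and Olig2 at 5.94 FPKM), the microglial markers a median of 27.0 FPKM (C1qb at 38.9, C1qa at 38.8 and Aif1 at 3.51 FPKM) and the interneuron markers a median of 10.6 FPKM (Sst at 109, Gad1 at 87.1 and Lhx6 at 0.444 FPKM). In RNA from a whole tissue, few cells of a type and little RNA per cell cannot be told apart, and which cells carried each channel was not tested.

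Of the 41 channel genes, 24 reached 1 FPKM and 11 reached 10 FPKM. These are 58.5% and 26.8% of the members, beside 56.4% and 30.8% of 20135 protein-coding symbols, and 39.6% and 21.1% of all symbols. The shares thus lay near the protein-coding background. The members' median was 1.89 FPKM, beside a median of 2.46 FPKM over protein-coding symbols. Of the members below 1 FPKM, 6 lay between 0.1 and 1 FPKM, 5 lay above 0 and below 0.1 FPKM, and 6 were listed at 0. The voltage-gated potassium channel symbols (Kcna to Kcnd, Kcnf to Kcnh, Kcnq, Kcns and Kcnv) had a median of 3.66 FPKM. Of these 40 symbols, 32 (80%) reached 1 FPKM and 13 (32.5%) reached 10 FPKM, the latter share near the protein-coding background. The difference between the families was not tested.

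**Figure D1:**
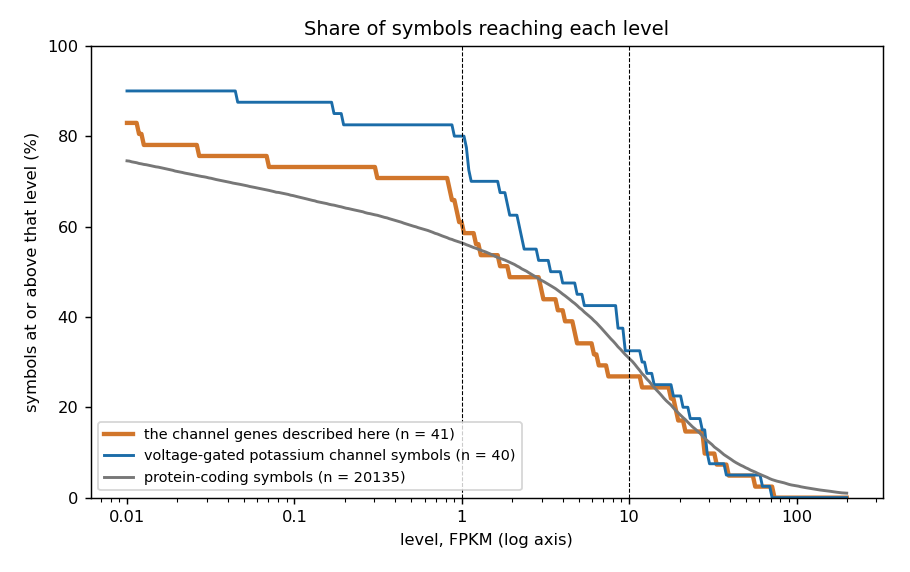
Share of symbols (y axis, percent) at or above each level (x axis, FPKM, log scale) for the 41 channel genes described here, for 40 voltage-gated potassium channel symbols and for 20135 protein-coding symbols; dashed lines mark 1 and 10 FPKM. At 1 FPKM the curve of the channel genes stands at 58.5%, near the 56.4% of protein-coding symbols, and the voltage-gated curve stands at 80%. At 10 FPKM the channel genes stand at 26.8%, protein-coding symbols at 30.8% and voltage-gated symbols at 32.5%.

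The levels were concentrated in few genes. Kcnk1, which encodes the leak channel subunit TWIK-1, was highest at 72.1 FPKM, above 96.04% of protein-coding symbols. It was followed by Kcnj4 (Kir2.3) at 56.3 FPKM, Kcnj3 (GIRK1) at 38.7 FPKM and Kcnmb4 (BK beta 4) at 32.5 FPKM. These 4 genes carried 50.2% of the 397 FPKM summed over all members, and the 10 highest carried 83.4%. The steps between neighbours in this order were small at the top, with ratios of 1.28 from Kcnk1 over Kcnj4, 1.46 from Kcnj4 over Kcnj3 and 1.19 from Kcnj3 over Kcnmb4. Without replicate values, whether such neighbours differ is unknown.

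**Figure D2:**
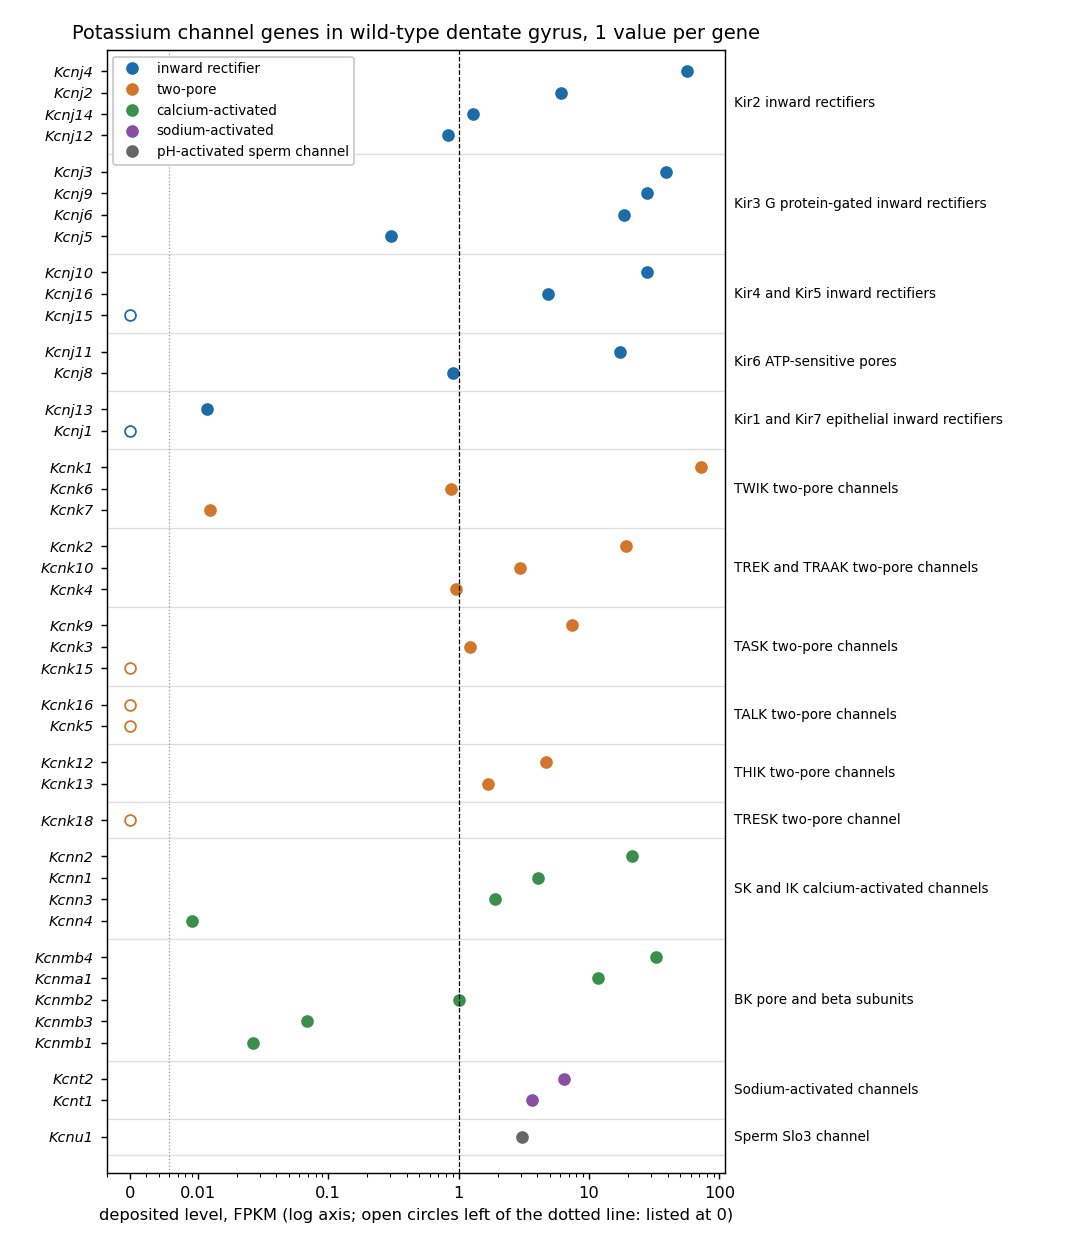
Deposited level of each of the 41 genes (x axis, FPKM, log scale), grouped by subfamily down the page and coloured by class, with 1 value per gene and no error. Open circles left of the dotted line are the 6 genes listed at 0, and the dashed line marks 1 FPKM, which 24 genes reached; in most subfamilies 1 gene stands well to the right of its relatives, with Kcnk1 at 72.1 FPKM and Kcnj4 at 56.3 FPKM farthest.

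Within subfamilies the levels were uneven. Among the 8 subfamilies of 3 or more members, the leading gene held at least 70% of the subfamily's summed FPKM in 7, and 45.4% in the G protein-gated Kir3 group. The highest such share was that of Kcnk1, with 98.8% of the TWIK sum. In the BK group the leading gene, at 71.7%, was the auxiliary subunit gene Kcnmb4, summed with the pore gene. Such shares were not computed for other groups of genes, so whether these subfamilies are unusually uneven was not tested. The subfamilies and their partners are described below in order of class, and no level of a member differs between summing and taking the highest entry, because each symbol had 1 entry.

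**Figure D3:**
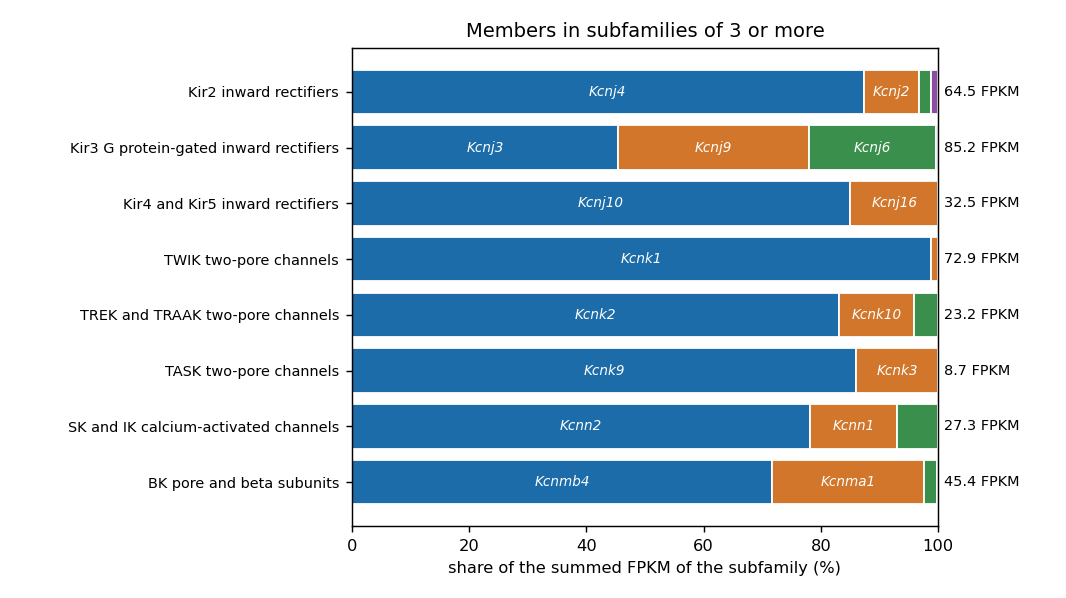
Share of each member in the summed FPKM of its subfamily (x axis, percent) for the 8 subfamilies of 3 or more members, with the sum at the right; segments run from the highest member at the left, and segments under 8% are not named. A single gene fills most of each bar except in the Kir3 group, where Kcnj3, Kcnj9 and Kcnj6 hold 45.4%, 32.6% and 21.6%.

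The inward rectifier genes had a median of 4.86 FPKM over 15 genes, the highest of the 3 classes with more than 2 members. Of the 15 genes, 9 reached 1 FPKM and 6 reached 10 FPKM, beside 56.4% and 30.8% of protein-coding symbols. Among the constitutively active Kir2 genes, Kcnj4 stood at 56.3 FPKM, 9.29 times Kcnj2 (Kir2.1) at 6.06 FPKM and 68.5 times Kcnj12 (Kir2.2) at 0.822 FPKM. Kcnj14 (Kir2.4) stood at 1.29 FPKM, and the ratio of Kcnj12 to Kcnj14 was 0.638. Kcnj4 alone held 87.3% of the Kir2 sum. Its listed transcript lies on the minus strand of chromosome 15 from 79314148 to 79335671 in the mm9 build.

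The Kir3 genes encode GIRK channels, which open when G protein beta-gamma subunits are released by receptors coupled to inhibitory G proteins. GIRK1 needs another GIRK subunit to reach the cell surface. Kcnj3 stood at 38.7 FPKM, Kcnj9 (GIRK3) at 27.8 FPKM and Kcnj6 (GIRK2) at 18.4 FPKM. Kcnj5 (GIRK4), best known from the heart atrium, stood at 0.303 FPKM. The 3 brain subunit genes thus lay within a ratio of 2.10 of each other, the ratio of Kcnj3 to Kcnj6. Kcnj3 exceeded Kcnj9 by 1.39 times and Kcnj9 exceeded Kcnj6 by 1.51 times, whereas Kcnj9 exceeded Kcnj5 by 91.6 times. The listed span of Kcnj3 overlaps that of Gm17595, on the opposite strand at 2.61 FPKM, by 1891 bases. Reads of the overlap cannot be told apart by strand here. The listed transcript of Kcnj6 (2362 nt) is shorter than its longest annotated coding form (3627 nt), and if the deposited value belonged to the listed form and were set to the longer one, the ratio of Kcnj3 to Kcnj6 would be 3.22 and that of Kcnj9 to Kcnj6 2.31.

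Receptors and G proteins that act on GIRK channels were represented in the same tissue. Of 29 genes in that list, 25 reached 1 FPKM and 21 reached 10 FPKM, beside 56.4% and 30.8% of protein-coding symbols, with a median level of 29.8 FPKM. The G protein beta subunit gene Gnb2 was highest at 209 FPKM. Gabbr1, a subunit of the GABA-B receptor, followed at 172 FPKM. The lowest member was the mu opioid receptor gene Oprm1 at 0.0819 FPKM. The other members given in this paragraph were named after their values were seen. The GABA-B partner subunit gene Gabbr2 stood at 63.5 FPKM, the metabotropic glutamate receptor gene Grm2 at 57.3 FPKM, the adenosine A1 receptor gene Adora1 at 51.6 FPKM and the serotonin receptor gene Htr1a at 11.4 FPKM. The regulator Rgs7, which speeds the closing of GIRK channels, stood at 31.4 FPKM. Snx27, whose product binds GIRK subunits during endosomal sorting, stood at 26.7 FPKM. Besides Oprm1, the receptor genes below 1 FPKM were Oprd1 at 0.921 FPKM, Drd2 at 0.173 FPKM and Chrm2 at 0.165 FPKM.

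Kcnj10 encodes Kir4.1, the main potassium channel of astrocytes, which is also found in oligodendrocytes and is linked to uptake of potassium released by neurons. It stood at 27.7 FPKM. Kcnj16 encodes Kir5.1, which assembles with Kir4.1, and stood at 4.86 FPKM, so that the ratio of Kcnj10 to Kcnj16 was 5.69. Kcnj15 (Kir4.2) was listed at 0. Kcnj10 exceeded Kcnj2 by 4.56 times. All 11 genes of the list of astrocyte potassium clearance partners exceeded 10 FPKM, beside 30.8% of protein-coding symbols. The highest were the glutamate transporter gene Slc1a2 at 267 FPKM and the sodium pump subunit gene Atp1b2 at 205 FPKM, and the lowest was the dystrophin gene Dmd at 12.1 FPKM. The water channel gene Aqp4, named after its value was seen, stood at 37.9 FPKM, and 5 of these partners also belong to the astrocyte marker list.

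The Kir6 genes encode the pores of ATP-sensitive channels, which close when ATP is high and need a sulfonylurea receptor. Kcnj11 (Kir6.2) stood at 17.3 FPKM and Kcnj8 (Kir6.1) at 0.906 FPKM, a ratio of 19.0. Their receptors differed in the same direction. Abcc8 (SUR1), the usual partner of Kir6.2 in neurons, stood at 15.5 FPKM and Abcc9 (SUR2) at 0.0285 FPKM. The ratio of Abcc8 to Abcc9 was 546, a value set by the very low denominator, since it was 122 with 0.1 FPKM added to both and 16.1 with 1 FPKM added. Kcnj8 and Abcc9 are known as genes of pericytes and vascular smooth muscle. Of 7 markers of those cells, 5 reached 1 FPKM, beside 56.4% of protein-coding symbols. Among the 7 markers, Vtn stood at 16.8 FPKM, Rgs5 stood at 8.22 FPKM and Myh11 was listed at 0. The endothelial markers stood at 7.96 FPKM or less, led by Cldn5 and then Slco1a4 at 4.96 FPKM. Pecam1 was listed at 0, a value that can also stand for a failed estimate, for this marker as for the members listed at 0. The gene identifier of Kcnj11 has no entry in GENCODE M21, so its transcript length was not checked.

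The epithelial inward rectifier genes were, with Kcnj15, the lowest of the class. Kcnj1 (Kir1.1, or ROMK), known from the kidney tubule, was listed at 0, and Kcnj13 (Kir7.1), known from the choroid plexus and the retinal pigment epithelium, stood at 0.0117 FPKM. The listed span of Kcnj13 lies entirely inside that of Gigyf2 on the other strand, which stood at 13.4 FPKM. Among 6 choroid plexus markers, Kl reached 6.06 FPKM and Ttr 2.13 FPKM, the others stood below 1 FPKM, Folr1 was listed at 0, and the list median was 0.174 FPKM.

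The two-pore-domain class held the highest gene of all. Of its 14 genes 4 were listed at 0, beside 4862 of 20135 protein-coding symbols. Its median was 1.09 FPKM, and 7 genes (50%) reached 1 FPKM, beside 56.4% of protein-coding symbols. In the TWIK group, Kcnk1 at 72.1 FPKM stood 83.0 times above Kcnk6 (TWIK-2) at 0.868 FPKM. Kcnk7, whose product is not known to form a working channel by itself, stood at 0.0125 FPKM. The listed transcript of Kcnk1 lies on the plus strand of chromosome 8 from 128519002 to 128554583 (mm9). It is the longest coding form in GENCODE M21, at 2235 nt.

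The TREK and TRAAK genes encode channels opened by membrane stretch and polyunsaturated fatty acids. Kcnk2 (TREK-1) stood at 19.2 FPKM, 6.51 times Kcnk10 (TREK-2) at 2.96 FPKM and 20.04 times Kcnk4 (TRAAK) at 0.960 FPKM. Kcnk1 exceeded Kcnk2 by 3.75 times. The listed transcript of Kcnk10 is 2629 nt long, under 0.5 of its longest coding form of 7460 nt, and the ratio of Kcnk2 to Kcnk10 would be 18.5 if the values were set to the longest forms. The TASK genes encode acid-sensitive leak channels. Kcnk9 (TASK-3) stood at 7.45 FPKM, 6.14 times Kcnk3 (TASK-1) at 1.21 FPKM, and Kcnk15 (TASK-5), for which no current has been found, was listed at 0.

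Among the remaining two-pore genes, Kcnk12 (THIK-2) stood at 4.69 FPKM, 2.81 times Kcnk13 (THIK-1) at 1.67 FPKM. THIK-1 is known as the main resting potassium channel of microglia. The alkaline-activated TALK genes Kcnk5 and Kcnk16, known from kidney and pancreas, and Kcnk18 (TRESK), known from sensory neurons, were all listed at 0. Kcnk17 was not among the symbols with a value.

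The calcium-activated class had a median of 1.89 FPKM over 9 genes, of which 5 reached 1 FPKM, beside 56.4% of protein-coding symbols. The SK channels carry calmodulin as their calcium sensor and generate the medium afterhyperpolarisation. Kcnn2 (SK2) stood at 21.4 FPKM, 5.22 times Kcnn1 (SK1) at 4.09 FPKM and 11.3 times Kcnn3 (SK3) at 1.89 FPKM, and Kcnn1 exceeded Kcnn3 by 2.16 times. Kcnn2 held 78.1% of the sum of this subfamily. Kcnn4, the intermediate conductance channel of red blood cells, lymphocytes and epithelia, stood at 0.00902 FPKM, the lowest level above 0 among all members. All 8 SK partner genes exceeded 10 FPKM, beside 30.8% of protein-coding symbols, with the calmodulin gene Calm2 highest at 674 FPKM. The lowest was Csnk2a2 at 11.9 FPKM, which encodes a catalytic subunit of casein kinase 2, the kinase that lowers the calcium sensitivity of SK2. The processed pseudogene Gm10540, on the opposite strand inside the Kcnn2 span, stood at 3.003 FPKM, and reads of overlapping entries on opposite strands cannot be told apart here.

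The BK channel is opened jointly by calcium and depolarisation, and its beta subunits set its gating. In this group the auxiliary gene was higher than the pore gene. Kcnmb4 stood at 32.5 FPKM and Kcnma1, the pore, at 11.8 FPKM, a ratio of Kcnmb4 to Kcnma1 of 2.77. The beta 4 subunit is the neuronal one and slows the activation of the channel. The other beta subunit genes were far lower, with Kcnmb2 at 0.998 FPKM, Kcnmb3 at 0.0688 FPKM and Kcnmb1, the smooth muscle subunit, at 0.0266 FPKM. Kcnmb4 exceeded Kcnmb2 by 32.6 times. The listed Kcnma1 transcript of 4524 nt is under 0.5 of the longest coding form, which is 12094 nt, and with values set to the longest forms the ratio of Kcnmb4 to Kcnma1 would be 7.39. The listed span of Kcnmb4 also overlaps the antisense gene 4933400F03Rik, whose overlapping entries stood at 4.46 and 0.113 FPKM, and 1700058G18Rik at 0.154 FPKM.

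Of 9 genes in the list of BK gamma subunits and calcium sources, 6 reached 1 FPKM, beside 56.4% of protein-coding symbols. The calcium channel gene Cacna1a, for P/Q-type current, was highest at 21.3 FPKM, followed by the ryanodine receptor gene Ryr2 at 21.2 FPKM. The lowest was the gamma subunit gene Lrrc52 at 0.0131 FPKM. The other gamma subunit genes, named after their values were seen, were Lrrc55 at 3.92 FPKM, Lrrc26 at 0.978 FPKM and Lrrc38 at 0.213 FPKM.

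Both sodium-activated channel genes were above 1 FPKM. Kcnt1 (Slack) stood at 3.64 FPKM and Kcnt2 (Slick) at 6.44 FPKM, a ratio of Kcnt1 to Kcnt2 of 0.566. This ratio depends on which transcript the Kcnt1 value belongs to. The transcript listed for Kcnt1 is a retained-intron form of 532 nt, whereas the longest coding form is 5881 nt, and with values set to the longest coding forms the ratio would be 0.0818. Kcnt1 was the only member whose listed transcript is a noncoding form, among the 38 members whose listed transcript is in GENCODE M21.

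Kcnu1 encodes Slo3, a relative of the BK pore that is opened by alkaline pH and is known as the potassium channel of sperm. It stood at 3.04 FPKM, above 52.0% of protein-coding symbols, and the ratio of Kcnma1 to Kcnu1 was 3.86, or 1.45 with values set to the longest coding forms. Its accessory gene Lrrc52 stood at 0.0131 FPKM. Sperm genes chosen after the Kcnu1 value was seen were mostly at or near 0: Catsper1, Catsper3, Catsper4, Prm2, Tnp1 and Odf1 were listed at 0, Prm1 stood at 0.115 FPKM and Catsper2 at 1.27 FPKM. No other entry overlaps the listed Kcnu1 span, on the plus strand of chromosome 8 from 26960095 to 27048404 (mm9). The nearest entries on either side, both on the minus strand, were Ash2l at 17.6 FPKM, 8.84 kb away, and Hgsnat at 14.1 FPKM, 6.53 kb away. The part of reads from outside the gene in this value was not tested.

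Position in the genome was a property that the choice of genes did not use. Within 200 kb of each other lay 6 pairs of members, or of a member and its partner. Kcnj9 and Kcnj10 are divergent neighbours on chromosome 1, with 11.9 kb between the listed span of Kcnj9 (174251164 to 174259394) and that of Kcnj10 (174271341 to 174304216, mm9). Their levels were the closest of any neighbours in the order of members above 0, at 27.8 and 27.7 FPKM. GIRK3 is known as a neuronal and Kir4.1 as a glial channel, and a relation between position and level was not tested. Kcnj11 and Abcc8, the pore and receptor of the ATP-sensitive channel, lie 4.29 kb apart on chromosome 7 and stood at 17.3 and 15.5 FPKM. Kcnj16 and Kcnj2, 38.2 kb apart on chromosome 11, stood at 4.86 and 6.06 FPKM. The pair of Kcnk5 and Kcnk16 on chromosome 14 was listed at 0 for both genes. In the other pairs all levels lay below 1 FPKM, with depth and detection limit unknown, so whether the paired genes differed was not tested. Kcnj8 and Abcc9, 16.5 kb apart on chromosome 6, stood at 0.906 and 0.0285 FPKM, and Kcnj5 and Kcnj1, 28.2 kb apart on chromosome 9, stood at 0.303 FPKM and at 0.

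**Figure D4:**
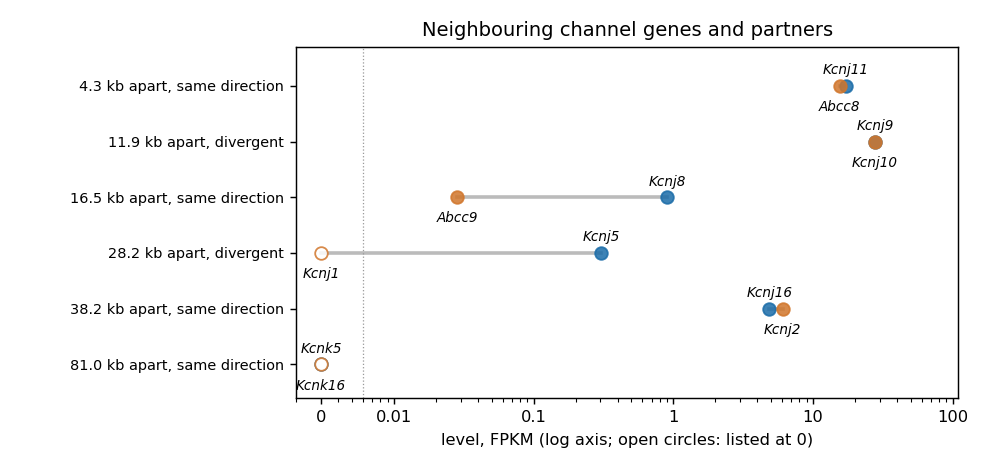
Levels (x axis, FPKM, log scale; open circles are genes listed at 0) of the 6 pairs of neighbouring channel or partner genes within 200 kb, from the closest pair at the top; blue marks the gene at the lower coordinate and orange the other. Kcnj9 and Kcnj10 coincide at 27.8 and 27.7 FPKM, while Kcnj8 and Abcc9 stand apart on the log scale at 0.906 and 0.0285 FPKM, both low values.

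Promoter sequence was the other such property. RefSeq windows of the GRCm38.p6 build were at hand for 33 of the 41 members, and CpG dinucleotides were counted in the 250 bases before each start, taking the window with most CpG where a gene had several. The 9 members at 10 FPKM or more had a median of 26 CpG, with a range of 0 to 43, the 8 members from 1 to 10 FPKM a median of 10, and the 16 members under 1 FPKM a median of 5.5. Over protein-coding symbols the medians in the same level ranges were 18, 16 and 4 CpG. The share of genes with 10 or more CpG went the other way at 10 FPKM or more, with 66.7% of the 9 members and 84.7% of protein-coding symbols, and over all levels it was 42.4% of members and 57.8% of protein-coding symbols. Methylation of these bases was not analysed here. The 3 upstream windows below are shown because they belong to the highest inward rectifier gene and to the divergent neighbours with nearly equal levels. Each runs 5′ to 3′ on the strand of its gene and ends at the base before the start, with CpG in capitals.
Kcnj4: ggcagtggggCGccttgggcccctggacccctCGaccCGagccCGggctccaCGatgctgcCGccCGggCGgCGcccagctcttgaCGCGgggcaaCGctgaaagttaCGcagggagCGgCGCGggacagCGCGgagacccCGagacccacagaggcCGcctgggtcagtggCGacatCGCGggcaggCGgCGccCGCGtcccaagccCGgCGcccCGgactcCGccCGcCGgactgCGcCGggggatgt
Kcnj9: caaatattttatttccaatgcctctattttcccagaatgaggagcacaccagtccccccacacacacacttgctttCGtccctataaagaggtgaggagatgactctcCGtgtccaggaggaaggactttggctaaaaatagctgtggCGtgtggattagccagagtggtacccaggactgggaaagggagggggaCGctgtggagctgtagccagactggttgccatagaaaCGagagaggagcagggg
Kcnj10: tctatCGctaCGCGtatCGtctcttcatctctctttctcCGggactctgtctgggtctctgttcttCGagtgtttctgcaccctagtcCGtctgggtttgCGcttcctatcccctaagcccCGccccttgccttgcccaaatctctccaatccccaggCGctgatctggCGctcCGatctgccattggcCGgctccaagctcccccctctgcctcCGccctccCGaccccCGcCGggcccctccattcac
The windows lie at chr15:79505242-79505491 on the minus strand for Kcnj4, chr1:172329323-172329572 on the minus strand for Kcnj9 and chr1:172340960-172341209 on the plus strand for Kcnj10. Kcnj4, at 56.3 FPKM, had 35 CpG in its window. Kcnj10, at 27.7 FPKM, had 17 and Kcnj9, at 27.8 FPKM, had 5. This pair was shown for its nearly equal levels, and a relation between CpG content and level was not tested. Kcnmb4 had the most among the 33 members with a window, with 43, and its GENCODE start lies 88 bases downstream of the RefSeq start. Kcnk1, the highest gene, had 0 CpG in this window, but its GENCODE start lies 68 bases downstream, and the first 50 bases after the RefSeq start held 9 CpG. Some other members had larger offsets. The nearest GENCODE start lay 440 bases downstream for Kcnt2, and more than 88 bases upstream for Kcnk18, Kcnmb3 and Kcnk7. For a window of Kcnj16 it lay 4275 bases downstream, and for a window of Kcnk10 more than 88 bases upstream. Neither of these windows had the most CpG of its gene, so neither entered the medians. The counts for all members, and their medians, therefore apply to the RefSeq starts.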

How the data were processed

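Poly(A) RNA was made into randomly primed Illumina libraries, per the labels' protocols, which describe no step that marks the strand. TopHat and Cufflinks and the builds mm9 and NCBIM37 are named in the submitters' processing notes, without versions or options. The authors deposited 1 column of FPKM values for the series. Whether libraries were pooled or averaged is not stated. Of 37681 entries, 36469 held a value and 1212 blank ones were left out. Entries sharing a symbol were summed; no member had more than 1.

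Low values times transcript length showed no common step, as whole reads would give: at the best step 24.7% of 984 single-transcript genes were within 0.1 of a whole multiple, against 20% for an even spread. Depth is thus unknown, and no interval or detection limit is given. Cufflinks can write 0 for a failed estimate, so such genes are "listed at 0".

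Symbols are those of the table; gene types and transcript lengths came from GENCODE M21, matched by identifier (40 of 41 members), since its coordinates are of another build. Its transcript entries were found for 38 members, of which 4 (Kcnma1, Kcnt1, Kcnk10 and Kcnk16) had a listed transcript under 0.5 of the longest coding form. Whether values are per gene or per listed transcript is not stated. Promoter sequences are RefSeq's (GRCm38.p6). Start positions were made 1-based.

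The members, subfamilies, partner and marker lists, 25 gene pairs and alternatives were chosen with earlier results of these data known. All members are named; the rule adds the 2 highest and the lowest genes of each list, some of which are not reported here, and list genes outside it are marked in the text. The planned limma test needs values per library and was not run, and no p-value is given. Ratios are of the deposited values without a pseudocount. Sums and counts were tested on simulated data. Work used Python 3.11.15, pandas 2.3.3, numpy 2.4.6 and matplotlib 3.10.9.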

Additional observations from a re-analysis of the deposited data

How the results depend on the processing

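No paired analysis was possible because there is 1 group and 1 value per gene, and leaving out single libraries was not run for the same reason. Of 172 alternative values, 145 stayed within 1.5 times the reported one, 27 moved further and no ratio changed direction. The 145 include every value from the highest entry in place of the sum. For members that value could not differ, because each had 1 entry. The 29 subfamily shares had no other alternative, so how they depend on the processing was not tested. The count of 24 members at 1 FPKM was 29 at 0.5 FPKM and 20 at 2 FPKM. At 0.5 FPKM the Kir6 and TWIK groups each counted 2 members in place of 1, and at 2 FPKM the TASK and THIK groups each counted 1 in place of 2. Without members listed at 0 the median was 3.64 FPKM over all members and 2.32 FPKM for two-pore genes, which then stood above the 1.89 FPKM of calcium-activated genes. With only members at 0.1 FPKM or more, medians were 4.78 FPKM for all, 11.7 for inward rectifiers, 2.96 for two-pore and 7.92 for calcium-activated genes, in the reported order of classes. The mean on the log2(FPKM + 0.1) scale gave 2.82 FPKM for inward rectifiers. Adding 1 FPKM lowered the ratios of Kcnj4 to Kcnj12 (31.5), Kcnj9 to Kcnj5 (22.1), Kcnj11 to Kcnj8 (9.57), Abcc8 to Abcc9 (16.1), Kcnk1 to Kcnk6 (39.1), Kcnk2 to Kcnk4 (10.3), Kcnk9 to Kcnk3 (3.82) and Kcnmb4 to Kcnmb2 (16.8), as it must for low denominators, and 0.1 FPKM gave 122 for Abcc8 to Abcc9. Setting values to the longest coding length, possible for 21 of 24 ratios, gave 3.22 for Kcnj3 to Kcnj6, 2.31 for Kcnj9 to Kcnj6, 18.5 for Kcnk2 to Kcnk10, 7.39 for Kcnmb4 to Kcnma1, 0.0818 for Kcnt1 to Kcnt2 and 1.45 for Kcnma1 to Kcnu1. With 300 kb, a distance chosen after the data were seen, 10 neighbouring pairs were found in place of 6.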
